A study of Homo sapiens with 6 samples.

Results

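Programmed cell death through mitochondria is governed by the BCL2 family, and 10 of its genes are described here in 5637, a line from a human bladder carcinoma. The members were taken by symbol from the deposited table: the anti-apoptotic genes BCL2L1, MCL1 and BCL2L2, the effectors BAX and BAK1, and the BH3-only genes BID, BMF, PMAIP1, BBC3 and BCL2L11. All 10 were among the 13271 genes listed, and all 10 were among the 12866 tested. The cells were transfected with a plasmid carrying MAT1A, a methionine adenosyltransferase gene of liver, or with an empty vector as control, and lysed 48 h later. Each group has 3 libraries of single-end 36-cycle reads. Both groups went through the same lipid transfection at about 50% confluency. The share of cells that took up plasmid is not in the labels, so each value is an average over transfected and untransfected cells. Whether the 3 replicates of a group were grown apart is not stated, so the p-values speak of library-to-library spread, which may be technical.

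The family works by binding among its own members. Effector proteins, once activated, assemble into pores in the outer mitochondrial membrane and release cytochrome c, which starts the caspases. Anti-apoptotic proteins hold effectors and their activators in check, and BH3-only proteins, each answering to different stresses, bind anti-apoptotic proteins or activate effectors directly. Several members, MCL1 and PMAIP1 among them, have short-lived products, so transcript levels are only a part of their control. Cancers of the epithelium often depend on MCL1 or on BCL-xL, the main product of BCL2L1.

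Promoter sequence is shown for the BH3-only genes whose transcripts differed between the groups, PMAIP1, BMF and BID. Each stretch holds 250 bases before and 50 after an annotated RefSeq start on GRCh38.p14. It is printed 5′ to 3′ on the gene's strand. BMF has 2 such starts and BID 5; the first listed is shown. PMAIP1 is chr18:59899746-59900045 on the plus strand, BMF chr15:40108830-40109129 on the minus strand and BID chr22:17774420-17774719 on the minus strand. Capitals mark matches on either strand to the GC box GGGCGG, the cyclic AMP response element half-site TGACG or the E-box CACGTG, which share no bases with one another in these 3 stretches.
PMAIP1: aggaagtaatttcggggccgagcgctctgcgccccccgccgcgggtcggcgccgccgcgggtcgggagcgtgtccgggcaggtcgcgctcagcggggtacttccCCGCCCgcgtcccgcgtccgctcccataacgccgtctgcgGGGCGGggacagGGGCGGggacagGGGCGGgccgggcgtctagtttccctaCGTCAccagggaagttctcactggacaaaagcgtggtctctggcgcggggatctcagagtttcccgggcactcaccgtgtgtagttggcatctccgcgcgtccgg
BMF: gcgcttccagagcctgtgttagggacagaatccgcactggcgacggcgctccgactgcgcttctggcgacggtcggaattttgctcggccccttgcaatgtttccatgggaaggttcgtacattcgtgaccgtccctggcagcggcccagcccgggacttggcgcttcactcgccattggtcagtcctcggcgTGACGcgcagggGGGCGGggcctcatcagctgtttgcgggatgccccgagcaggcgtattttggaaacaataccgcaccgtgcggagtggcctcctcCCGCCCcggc
BID: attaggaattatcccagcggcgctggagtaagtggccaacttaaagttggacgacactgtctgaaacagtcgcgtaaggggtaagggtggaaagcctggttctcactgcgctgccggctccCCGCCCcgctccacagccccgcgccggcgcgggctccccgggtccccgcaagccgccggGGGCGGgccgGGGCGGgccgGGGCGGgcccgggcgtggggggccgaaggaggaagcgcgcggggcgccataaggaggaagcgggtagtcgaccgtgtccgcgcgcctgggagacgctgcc
The PMAIP1 stretch holds 4 GC boxes and 1 half-site, the BMF stretch 2 GC boxes and 1 half-site, and the BID stretch 4 GC boxes and 0 half-sites. None of the 3 has the E-box. Of 35116 stretches of the same length in the RefSeq table, 45.0% hold a GC box, 24.6% the half-site and 7.26% the E-box. Of the 8 members with an entry in that table, 7 hold a GC box at any of their starts, 4 the half-site and 3 the E-box. These counts are per gene over 14 stretches, and a gene with several starts has more room for a match. They therefore cannot be set against the shares per stretch. These matches are a description of the letters only.

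The transfected gene followed the labels. MAT1A stood at 1805, 1834 and 1917 in MAT1A libraries 1, 2 and 3, against 1.09, 0.253 and 4.54 in control libraries 1, 2 and 3, as scaled reads. The unit is that of the deposited table throughout: reads per gene divided by a library size the authors scaled, close to CPM. Libraries held 18.7 to 21.6 M reads in the MAT1A group and 17.4 to 20.7 M in the control group. Of the 15 urothelial and epithelial markers looked for, 13 were listed, and their summed value was 12206 to 13419 in MAT1A libraries and 11435 to 11724 in control libraries. Of the uroplakin genes looked for, markers of differentiated urothelium, UPK1B and UPK2 were listed, while UPK1A and UPK3A were not. Transcripts of 12 skeletal muscle genes were present too, summing to 44.3 to 92.1 in MAT1A libraries and 93.4 to 467 in control libraries, with the highest sum in control 1. Of 7 fibroblast markers 3, among them COL1A1, were listed, at 121 to 128 in MAT1A libraries and 142.5 to 259 in control libraries, again with control 1 highest; their part in the results was not tested. Of 6 leukocyte and 4 endothelial markers, 1 of each was listed, with a sum of at most 1.66. In bulk RNA, fewer cells of a type and less RNA per cell cannot be told apart.

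Within the family, the 2 called rises and the larger of the 2 called falls were those of BH3-only genes, so this class went in both directions. BID and BMF were higher in MAT1A cells, PMAIP1 and the anti-apoptotic gene MCL1 were lower, and the effectors BAX and BAK1 showed no difference that passed the test. Of the 10 members, 4 were called (limma, Benjamini-Hochberg adjusted p under 0.05 over all tested genes), against 11.4% of all tested genes. The members were chosen with earlier results of these data known, so the shares over all genes serve as description and test nothing about the family. The 2 called higher compare with 4.01% of all genes, and the 2 called lower with 7.4%. For the same 4 members the 3 MAT1A and 3 control libraries did not overlap, against 30.3% of all genes (14.7% with MAT1A higher and 15.6% with MAT1A lower). An unadjusted p under 0.05 was met by 5 members, the fifth being BBC3, against 26.2% of all genes. The median log2 change of the 10 members was 0.012, beside 0.004 for all tested genes. Among the 3 anti-apoptotic genes 1 was called, lower; among the 2 effectors 0 were called; and among the 5 BH3-only genes 2 were called higher and 1 lower. Their medians were -0.03, 0.012 and 0.09. At an unadjusted p under 0.05 the effector count was also 0, as it was among the calls of edgeR and DESeq2 on recovered reads, which called 11.1% and 7.44% of all genes.

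**Figure D1:**
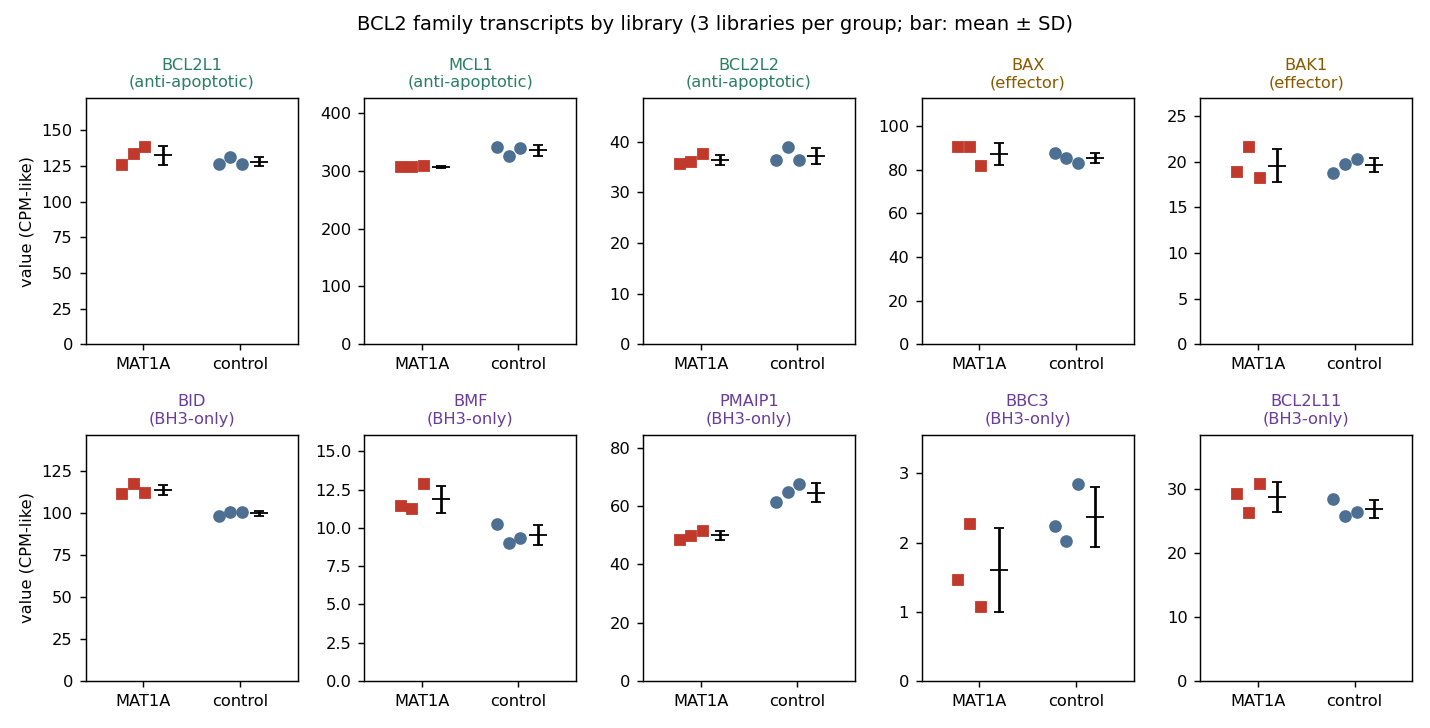
Values of the 10 members as CPM-like scaled reads (linear axes from 0), with 1 point per library, squares for MAT1A and circles for control; bars are mean ± SD over 3 libraries. The groups do not overlap for MCL1, BID, BMF and PMAIP1, and PMAIP1 averages 49.9 in MAT1A and 64.6 in control libraries.

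MCL1, the most abundant member, encodes a short-lived guardian that holds BAK1 and BH3-only proteins. It lies on chromosome 1 at 150574551 to 150579738 of GRCh38. Its value was 306.4, 305.9 and 308.9 in MAT1A libraries 1, 2 and 3, against 341, 325 and 340.4 in control libraries 1, 2 and 3, from 5685 to 7053 reads each. All 3 MAT1A libraries lay below all 3 control libraries and close to one another. MCL1 averaged 307.1 ± 1.58 in MAT1A cells and 335 ± 9.07 in control cells (SD, n = 3 each), a change of -8.47% in the means. The log2 change, a difference of mean log2(value + 1), was -0.13 ± 0.03 (SE; limma adjusted p = 0.0116). This call was lost without control 1 (adjusted p = 0.0765) and without control 3 (0.0812), at log2 changes of -0.11 and -0.12.

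BCL2L1, whose main product BCL-xL restrains BAX and BAK1, showed no difference that passed. On chromosome 20 at 31664452 to 31723989, it stood at 125.4, 133.6 and 138.1 in MAT1A libraries 1, 2 and 3, against 126.0, 131.4 and 126.6 in control libraries 1, 2 and 3. The groups overlapped. Its log2 change was 0.05, with a 95% confidence interval from -0.03 to 0.13 (adjusted p = 0.477). Gene-level reads do not separate BCL-xL from the shorter, pro-apoptotic splice form of the gene. The reads are also unstranded, and BCL2L1 shares 1424 exon bases with the antisense gene ABALON, which averaged 2.17 in MAT1A and 2.06 in control libraries.

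BCL2L2, which encodes BCL-w, was at 35.6, 36.1 and 37.5 in MAT1A libraries 1, 2 and 3, against 36.3, 38.9 and 36.3 in control libraries 1, 2 and 3. The groups overlapped, and the log2 change was -0.03 (95% confidence interval -0.13 to 0.07, adjusted p = 0.753). The gene, on chromosome 14 at 23298790 to 23311759, shares 813 exon bases with the readthrough gene BCL2L2-PABPN1 and 206 with PPP1R3E on the opposite strand, so its level is uncertain.

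The effectors BAX and BAK1 form the pores. BAX, on chromosome 19 at 48954815 to 48961798, was at 90.2, 90.1 and 81.4 in MAT1A libraries 1, 2 and 3, against 87.8, 85.2 and 83.0 in control libraries 1, 2 and 3. MAT1A 3 was the lowest of the 6 libraries and the other two MAT1A libraries were the highest. The log2 change of BAX was 0.03, with a 95% confidence interval from -0.06 to 0.12 (adjusted p = 0.704). BAK1, on chromosome 6 at 33572547 to 33580293, was at 18.9, 21.6 and 18.2 in MAT1A libraries 1, 2 and 3, against 18.8, 19.8 and 20.3 in control libraries 1, 2 and 3. Its MAT1A values spanned the control range on either side. The log2 change of BAK1 was -0.007, with an interval from -0.15 to 0.14 (adjusted p = 0.964).

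**Figure D2:**
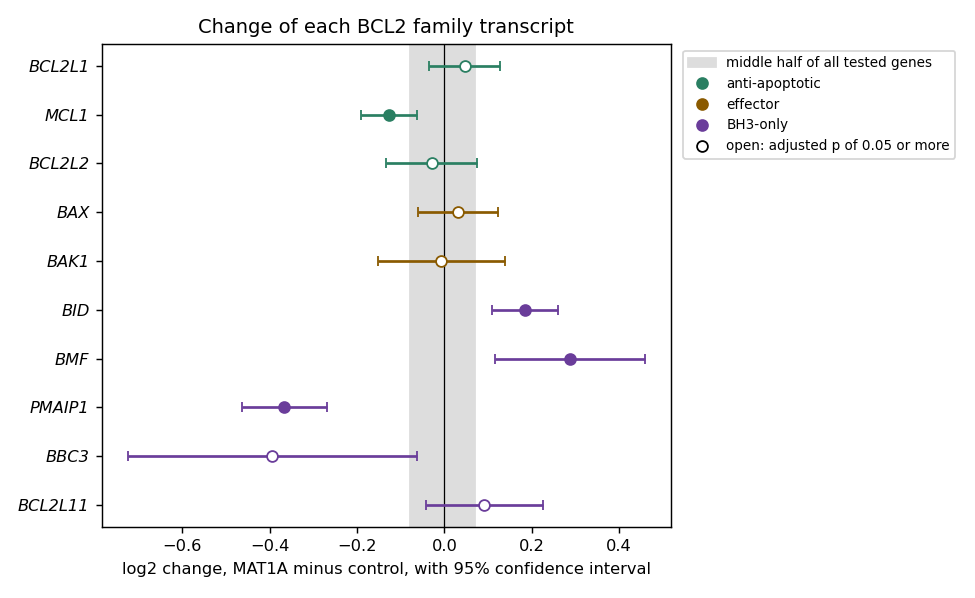
Log2 change of each member (x axis, difference of mean log2(value + 1), MAT1A minus control) with its 95% confidence interval, coloured by class; filled points have an adjusted p under 0.05 and the grey band is the middle part of all tested genes, from -0.08 to 0.07. The largest called fall is PMAIP1 at -0.37 and the largest called rise BMF at 0.29.

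Of the BH3-only genes, PMAIP1 had the clearest difference. It encodes NOXA, which binds MCL1 in preference to BCL-xL and promotes its degradation. PMAIP1 lies on chromosome 18 at 59899948 to 59904306. Its value was 48.3, 49.9 and 51.6 in MAT1A libraries 1, 2 and 3, against 61.4, 64.9 and 67.6 in control libraries 1, 2 and 3, from 896 to 1401 reads each. Every MAT1A library lay below every control library. PMAIP1 averaged 49.9 ± 1.63 in MAT1A cells and 64.6 ± 3.14 in control cells (SD, n = 3 each), a ratio of 0.772. On the log2 scale PMAIP1 fell by 0.37 ± 0.05 (SE; log2 change -0.37, limma adjusted p = 4.1e-05), lower than that of all but 2.97% of tested genes. It was called in all 21 alternatives, with log2 changes from -0.46 to -0.31, and its largest adjusted p was 0.000778.

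BID links death receptors to mitochondria: caspase-8 cuts its product, and the truncated form activates BAX and BAK1. On chromosome 22 at 17734138 to 17774770, it stood at 111, 117 and 112 in MAT1A libraries 1, 2 and 3, against 98.1, 100.6 and 100.9 in control libraries 1, 2 and 3. The groups did not overlap. BID averaged 113.7 ± 3.2 in MAT1A cells and 99.9 ± 1.53 in control cells (SD, n = 3 each), 13.8% higher. BID rose by 0.18 ± 0.04 on the log2 scale (SE; limma adjusted p = 0.00245), and the call held without any single library, with adjusted p up to 0.0206.

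BMF encodes a BH3-only protein that is tethered to the cytoskeleton through dynein light chain and is released on loss of attachment. On chromosome 15 at 40087890 to 40108892, its level was low: 11.4, 11.3 and 12.9 in MAT1A libraries 1, 2 and 3, against 10.3, 9.0 and 9.31 in control libraries 1, 2 and 3, from 178 to 276 reads each. MAT1A 2 and control 1 were nearest to each other, and the groups did not overlap. BMF averaged 11.8 ± 0.885 in MAT1A cells and 9.53 ± 0.666 in control cells (SD, n = 3 each), 24.4% higher. BMF rose by 0.29 ± 0.08 on the log2 scale (SE; limma adjusted p = 0.03). The call was lost without control 2, control 3, MAT1A 1 or MAT1A 3 (adjusted p = 0.105, 0.108, 0.0557 and 0.1) and with DESeq2 on recovered reads (0.101), at log2 changes from 0.23 to 0.32. BMF shares 461 exon bases with BMF-AS1 on the opposite strand.

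BBC3, which encodes PUMA, a p53 target that binds every anti-apoptotic member, was the scarcest. It lies on chromosome 19 at 47220822 to 47232766. Its value was 1.46, 2.26 and 1.07 in MAT1A libraries 1, 2 and 3, against 2.24, 2.02 and 2.85 in control libraries 1, 2 and 3. These rest on 27, 44 and 23 reads in MAT1A libraries and 39, 40 and 59 reads in control libraries. MAT1A 2 lay within the control range, so the groups overlapped. The log2 change was -0.39 with a 95% confidence interval from -0.72 to -0.06 on the log2(value + 1) scale, which understates changes at such levels, and it did not pass (unadjusted p = 0.0223, adjusted p = 0.118). With a pseudocount of 0.1 the log2 change was -0.59. Without MAT1A 2 it was -0.57 and passed (adjusted p = 0.0173).

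BCL2L11, which encodes BIM, an activator of BAX and BAK1 and a target of FOXO factors, had 29.2, 26.3 and 30.8 in MAT1A libraries 1, 2 and 3, against 28.5, 25.8 and 26.4 in control libraries 1, 2 and 3. MAT1A 1 and 3 were the highest of the 6 libraries, and MAT1A 2 lay among the controls. The log2 change was 0.09, with a 95% confidence interval from -0.04 to 0.22 (adjusted p = 0.39). The gene lies on chromosome 2 at 111119378 to 111168447. It shares 727 exon bases with MIR4435-2HG on the opposite strand, whose value was 23.7 ± 1.44 in MAT1A and 25.2 ± 1.65 in control libraries (SD, n = 3 each).

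The muscle transcripts, highest in control 1, were set beside each called member. Without control 1 the log2 changes were -0.11 for MCL1, 0.17 for BID, 0.34 for BMF and -0.4 for PMAIP1. With the libraries' muscle level as a covariate they were -0.12, 0.15, 0.35 and -0.46. In that fit 3.16% of all tested genes were called, and of the members PMAIP1 alone (limma adjusted p = 0.259 for MCL1, 0.184 for BID and 0.165 for BMF). Of the 12 muscle genes 11 were themselves called lower in MAT1A cells, where 7.4% of all genes were. The covariate thus goes with the group, and this fit cannot tell the 2 apart. Its SE was 0.047 for MCL1, 0.053 for BID and 0.119 for BMF, against 0.030, 0.035 and 0.081 in the main fit.

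Leaving out a library lowered most counts over the whole table as well. Without control 1, 2 or 3, 6.14%, 8.54% and 5.87% of all tested genes were called, and 3, 3 and 2 members. Without MAT1A 1, 2 or 3, 8.15%, 10.2% and 12.9% were called, and 3, 5 and 3 members. An arm of 2 libraries then borrows the spread of the other arm. At an adjusted p under 0.01, 5.15% of genes and 2 members, BID and PMAIP1, remained. With the replicate number as a block 18% of genes and the same 4 members were called, and with the trend on exon length and GC removed as well 20.1% and 5 members.

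**Figure D3:**
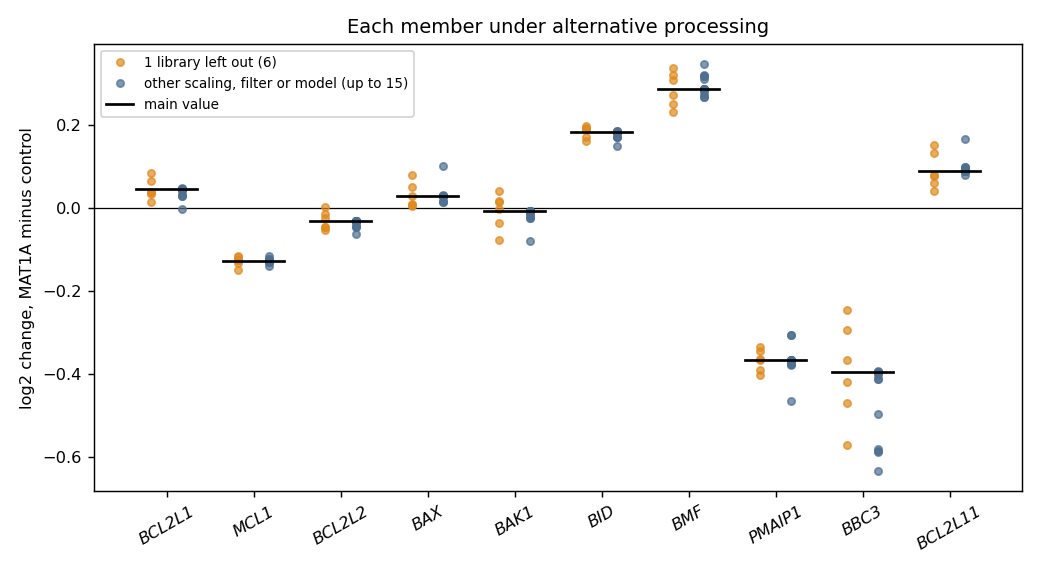
Log2 change of each member (y axis, MAT1A minus control) in the main fit (black line), with 1 library left out (orange) and under other scalings, filters or models (blue). The called members MCL1, BID, BMF and PMAIP1 keep their sign in every alternative run. So do BAX, BBC3 and BCL2L11, which were not called in the main fit, and BBC3 ranges from -0.63 to -0.24.

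Per kilobase of annotated exon, the levels spanned a wide range, with MCL1 at the top and BBC3 at the bottom in both groups. MCL1 had 70.2 ± 0.361 in MAT1A and 76.7 ± 2.08 in control libraries, as value per kb (SD, n = 3 each). BCL2L1 had 39.9 ± 1.94 in MAT1A and 38.6 ± 0.895 in control libraries, and BAX 33.7 ± 1.96 in MAT1A and 33.0 ± 0.929 in control libraries. PMAIP1 and BID changed places: in MAT1A libraries BID (25.6 ± 0.721) stood above PMAIP1 (22.3 ± 0.731), while in control libraries BID (22.5 ± 0.345) stood below PMAIP1 (28.9 ± 1.4). In every library this order was that of its group. The change of places depends on the exon lengths used, 4446 bases for BID and 2235 for PMAIP1. In values not divided by length, BID stood above PMAIP1 in every library. The means were 113.7 against 49.9 in MAT1A and 99.9 against 64.6 in control libraries. The order also restates the called rise of BID and fall of PMAIP1. BCL2L2 and BAK1, at 8.69 ± 0.242 and 8.84 ± 0.814 per kb in MAT1A libraries, did not differ beyond their spread. Below them came BCL2L11 at 4.32 ± 0.346 in MAT1A and 4.04 ± 0.217 in control libraries, BMF at 2.18 ± 0.162 in MAT1A and 1.75 ± 0.122 in control libraries, and BBC3 at 0.502 ± 0.191 in MAT1A and 0.745 ± 0.135 in control libraries. The lengths are unions of all annotated exons, so a gene with long unused exons is understated.

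**Figure D4:**
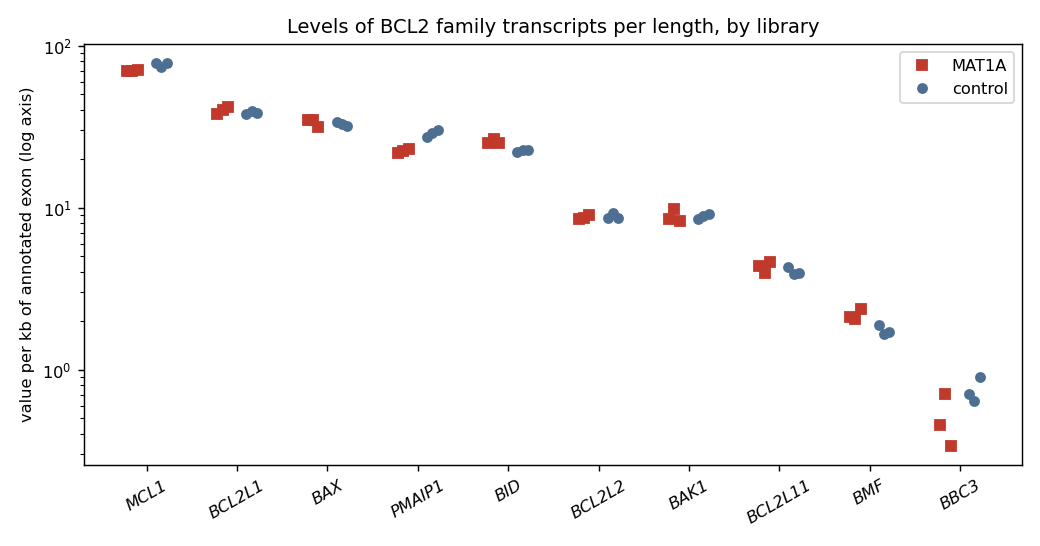
Value per kb of annotated exon for each member (log axis), with 1 point per library, squares for MAT1A and circles for control, ordered by the control mean. MCL1 lies between 70.0 and 78.0 in all libraries and BBC3 between 0.337 and 0.895.

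Summed per length within a library, the classes kept similar shares of the family. Anti-apoptotic genes made up 55.0 ± 0.91% in MAT1A and 55.5 ± 0.286% in control libraries (SD, n = 3 each). Effectors made up 19.7 ± 1.17% in MAT1A and 18.7 ± 0.353% in control libraries, and BH3-only genes 25.4 ± 0.287% in MAT1A and 25.9 ± 0.587% in control libraries. In each class the ranges of the groups overlapped. For 4 of 6 pairs of partners the ratio within a library did not overlap between the groups. The share over all gene pairs was not computed, and 30.3% of single genes did not overlap. PMAIP1, BID, BMF and MCL1 did not overlap on their own, so their ratios in part restate those differences. This holds for BCL2L11 per unit of MCL1 as well, since BCL2L11 overlapped on its own and MCL1 was called lower. PMAIP1 per unit of MCL1 was 0.158, 0.163 and 0.167 in MAT1A libraries 1, 2 and 3, against 0.180, 0.200 and 0.199 in control libraries 1, 2 and 3, and every MAT1A library lay below every control library. BID per unit of BAX was 1.31 ± 0.0714 in MAT1A and 1.17 ± 0.0497 in control libraries, and BMF per unit of BCL2L1 was 0.0895 ± 0.00467 in MAT1A and 0.0745 ± 0.00659 in control libraries, each with no overlap. BCL2L11 per unit of MCL1 was 0.0936 ± 0.00709 in MAT1A and 0.0802 ± 0.00313 in control libraries, also without overlap. The ratio of BAX to BCL2L1, often read as a balance of death and survival, was 0.661 ± 0.066 in MAT1A and 0.667 ± 0.026 in control libraries and overlapped. So did BAK1 per unit of MCL1, at 0.0637 ± 0.00612 in MAT1A and 0.0585 ± 0.00303 in control libraries. These 6 pairs were chosen from known partners with the members' changes in view, and they carry no test.

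Of 57 tested genes in 7 other apoptosis lists, 12 were called (11.4% of all tested genes were), 2 of them higher and 10 lower, where 4.01% of all genes were called higher and 7.4% lower. These lists too were chosen with earlier results of these data known, so the comparison is descriptive. Falls outnumbered rises among the calls over the whole table too: 35.1% of all calls were higher, or 46.1% with the trend on exon length and GC removed. With the replicate block 16 of the 57 were called (18% of all genes were), 4 higher and 12 lower. The additions were AIFM1 and PERP, both higher, and XIAP and MYC, both lower. These additions are named after their values were seen. Among 9 tested relatives of the family 2 were called, both lower: BNIP3 and BNIP3L, whose products sit on mitochondria and act mainly in mitophagy. BNIP3 averaged 18.5 ± 2.5 in MAT1A and 25.04 ± 1.88 in control libraries (SD, n = 3 each; log2 change -0.42, limma adjusted p = 0.00288). BNIP3L averaged 56.4 ± 2.18 in MAT1A and 67.1 ± 2.73 in control libraries (-0.25, adjusted p = 0.00148).

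Downstream of the mitochondria, 0 of 13 tested apoptosome and caspase genes were called (2 at an unadjusted p under 0.05), and edgeR and DESeq2 also called 0. Of all tested genes 11.4% were called in the main fit, 11.1% by edgeR and 7.44% by DESeq2, and 26.2% had an unadjusted p under 0.05. At such shares few calls would be looked for in a list this short. CYCS, the gene of cytochrome c, averaged 229.6 ± 2.14 in MAT1A and 233 ± 9.37 in control libraries. CASP2 averaged 100.7 ± 5.08 in MAT1A and 107.0 ± 1.81 in control libraries, and its log2 change of -0.09 did not pass (adjusted p = 0.167; 0.0334 without MAT1A 3). With the replicate block 1 gene of the apoptosome and caspase list, AIFM1, was called, higher, where 18% of all genes were called. Of 5 genes of inhibitor of apoptosis proteins, 2 were called lower in MAT1A cells (3, with XIAP, under the replicate block), where the main fit called 7.4% of all genes lower. BIRC3 (cIAP2), a target of NF-κB, had 116, 113.6 and 120.4 in MAT1A libraries 1, 2 and 3, against 161, 176 and 181 in control libraries 1, 2 and 3 (log2 change -0.56, limma adjusted p = 8.6e-08). Its relative BIRC2 (cIAP1) averaged 201 ± 3.13 in MAT1A and 227 ± 2.97 in control libraries (-0.17, adjusted p = 0.00116).

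Of 6 genes of proteins that hold or receive family members, 2 were called, both higher, where 4.01% of all genes were called higher. They were the mitochondrial channel genes VDAC1 (255.6 ± 2.79 in MAT1A, 238 ± 5.66 in control, log2 change 0.1, limma adjusted p = 0.0375) and VDAC3 (113 ± 3.45 in MAT1A, 104 ± 2.63 in control, log2 change 0.13, limma adjusted p = 0.0357). Each lost its call in 5 of the 6 fits that leave out a library (limma adjusted p up to 0.191 and 0.165). Both also lost it with library sums taken without MAT1A (0.0596 and 0.0533), a setting that drops the authors' scaling of library size as well. Of 5 genes that set the turnover of MCL1 protein 0 were called, with 0 also at an unadjusted p under 0.05 and by edgeR and DESeq2. Over all tested genes 11.4% were called and 26.2% had an unadjusted p under 0.05, so 0 of 5 says little. HUWE1, a ligase gene, averaged 438 ± 29.4 in MAT1A and 429 ± 18.8 in control libraries, and USP9X, a deubiquitinase gene, 145 ± 6.79 in MAT1A and 149 ± 1.86 in control libraries.

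Among 10 transcription factors known to act on BH3-only genes, 3 were called lower in MAT1A cells (4, with MYC, under the replicate block), beside 7.4% of all genes. FOXO1 averaged 22.3 ± 1.19 in MAT1A and 28.5 ± 1.94 in control libraries (log2 change -0.34, limma adjusted p = 0.0017). DDIT3 (CHOP), a factor of the endoplasmic reticulum stress response, averaged 6.43 ± 0.61 in MAT1A and 8.75 ± 0.954 in control libraries (-0.39, adjusted p = 0.0136; not called without control 3, 0.0954, or without MAT1A 1, 0.0662). ATF4, which drives PMAIP1 under amino acid shortage and other stresses, averaged 382 ± 11.8 in MAT1A and 410.5 ± 7.82 in control libraries (-0.1, adjusted p = 0.045), and lost its call in 5 of the 6 fits that leave out a library (adjusted p up to 0.166). Of 9 tested targets of p53, not all of them apoptosis genes, 3 were called lower: TNFRSF10B, a death receptor gene (log2 change -0.16, limma adjusted p = 0.00475), ZMAT3 (-0.26, 0.0341) and AEN (-0.15, 0.0344). With the replicate block 4 of the 9 were called, the same 3 lower and PERP higher; PERP was also called higher with the length and GC trend removed. ZMAT3 was not called when control 1, control 3, MAT1A 2 or MAT1A 3 was left out (adjusted p up to 0.162), and AEN without any library but MAT1A 2 (up to 0.16). With DESeq2, 8 of these 12 genes were called, the exceptions being VDAC1, VDAC3, ZMAT3 and AEN; with the muscle covariate 4 were, namely BIRC2, BIRC3, DDIT3 and TNFRSF10B.

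**Figure D5:**
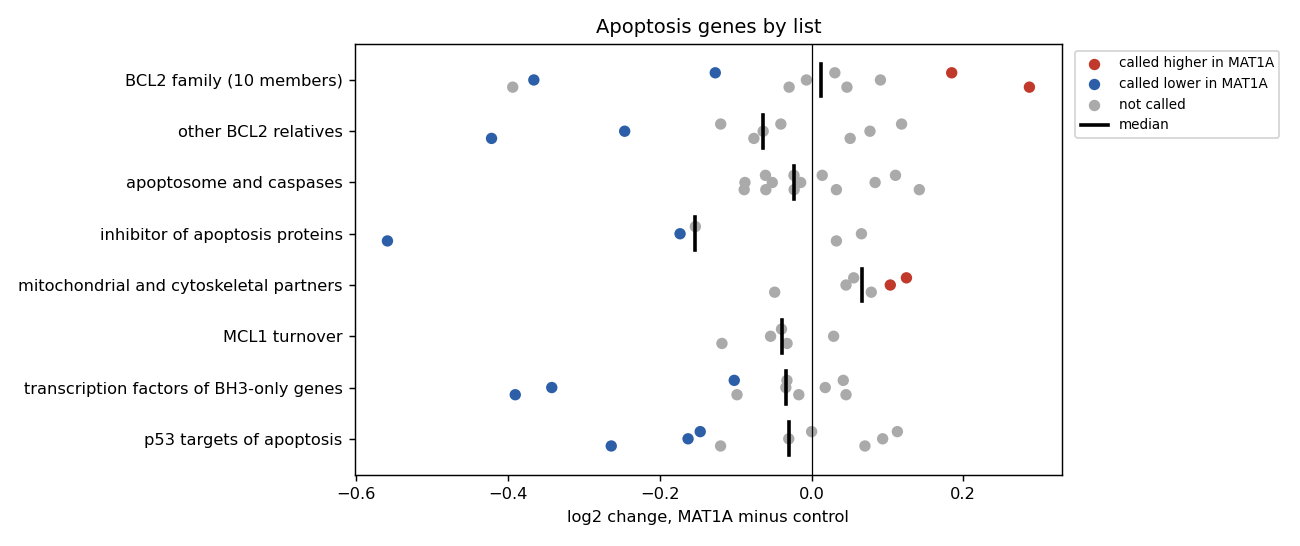
Log2 change of each tested gene (x axis, MAT1A minus control) in the BCL2 family and 7 other apoptosis lists; red points were called higher, blue points called lower, grey points not called, and the black bar is the median. The lowest median is that of the inhibitor of apoptosis proteins (-0.15), with BIRC3 at -0.56.

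Over the 6 libraries, the genes whose pattern was most like that of PMAIP1 were ZNF281 (Pearson r = 0.998), BIRC2 (0.996) and GATA6 (0.996), among 10551 tested genes with a mean of at least 5. Their log2 changes were -0.2, -0.17 and -0.71, and each was called. For BMF they were GCN1 (r = 0.988), TWSG1 (0.983) and KIF21A (0.981), with log2 changes of 0.09, 0.14 and 0.1, none of them called (adjusted p = 0.0664, 0.0946 and 0.117). These correlations share the difference between the groups, which was used to choose PMAIP1 and BMF, and they are given as a description.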

How the data were processed

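RNA from 3 MAT1A-transfected and 3 control samples of 5637 cells was sequenced. STAR 2.6.0c, featureCounts, edgeR and hg38 are named by the submitters' processing notes. The annotation and each tool's settings: not given in the sources used here. For 13271 genes, the authors deposited a signal: CPM-like reads per gene, divided by a library size they had scaled. In every column 100% of values were, within 0.001 reads, whole multiples of a common step, so reads were recovered by division; they summed to 17.4 to 21.6 M per library. Rows with few reads had been removed before deposit: the lowest row total was 25 reads.

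Columns were matched to samples by group and replicate number in the titles. The test was limma 3.58.1 (R 4.3.3) with an intensity trend on log2(value + 1), on the 12866 genes that reached 1 in 3 or more libraries, with Benjamini-Hochberg adjustment over all of them; adjusted p under 0.05 was called. The code was tested on simulated data. The design foresaw edgeR's quasi-likelihood test for raw counts; recovered reads went into edgeR 4.0.16, DESeq2 1.42.0 and limma-voom, which are among the 21 alternatives. The members and gene lists were chosen with earlier results of these data known. Genes named are all 10 members, MAT1A, up to 4 called genes of each apoptosis list by smallest p (2 by highest mean where none was called), and the 3 genes most like the member with the largest called change in each direction.

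Exon lengths and positions come from GENCODE release 29 (GRCh38, the same build as hg38), which matched 13211 symbols, and GC content from its longest transcript per gene. Groups share replicate numbers. After group means were removed, same-numbered libraries deviated together across genes (r = 0.25, 0.18 and 0.19 for numbers 1, 2 and 3). The numbers may therefore pair the libraries, on the evidence of the values alone, and the labels do not state it. The main fit and its p-values ignore such pairing (1468 genes called). It enters only as the replicate block among the alternatives (2310 genes called). Chi-square per degree of freedom lay between 1.86 and 4.37 for libraries of the same group, more than counting error alone gives. None was thus a mere resequencing of another, but separate libraries from the same culture or RNA are not excluded. Promoter sequences are RefSeq's, on GRCh38.p14.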

Additional observations from a re-analysis of the deposited data

How the results depend on the processing

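The table-wide count of 1468 called genes became 663 at adjusted p under 0.01, 957 with DESeq2 and 407 with the muscle covariate. It was 2310 with the replicate block, 1917 with the length and GC trend removed, and 2585 with both. With 1 library left out it was 749 to 1656. Of all calls 35.1% were higher, against 22.6% with the muscle covariate and 26.4% at adjusted p under 0.01. The share was 28.3% with library sums taken without MAT1A, which also drops the authors' scaling of library size. It was 42.2% with the replicate block, 46.1% with the length and GC trend removed and 50.8% with both, where falls were no longer the majority. The other alternatives gave 29.2% to 40.3%. The count of 4 called members became 2 at adjusted p under 0.01 and 1 with the muscle covariate, and ranged from 2 to 5 with 1 library left out; the lowest was without control 3, which left BID and PMAIP1. It was 4 with the replicate block, which changed no member's call; with the length and GC trend removed as well it was 5, with BBC3 added (adjusted p = 0.0376). The 12 called genes of the other lists (2 higher, 10 lower) became 6 at adjusted p under 0.01, 4 with the muscle covariate, 16 with the replicate block (4 higher, 12 lower), 14 with the length and GC trend removed (4 higher, 10 lower) and 18 with both (6 higher, 12 lower), and ranged from 6 to 12 with 1 library left out (7 without control 1, 6 without control 3). The log2 change of MAT1A stayed called in every alternative. Signs turned only for values near 0 that were never called: BCL2L1 (-0.0025) with the muscle covariate, BCL2L2 (0.0029) without control 2, BAK1 without control 3 (0.017), MAT1A 1 (0.016) or MAT1A 3 (0.041), CYCS with the muscle covariate (0.0078), without control 1 (0.0032) and after removal of the length and GC trend (0.0025, also with the replicate block), USP9X (0.0085) in those same 2 fits, and HUWE1 without control 2 (-0.00015) or MAT1A 3 (-0.015). With 1 library left out, log2 changes ranged from -0.051 to 0.0029 for BCL2L2, from -0.077 to 0.041 for BAK1, from -0.054 to 0.0032 for CYCS and from -0.015 to 0.082 for HUWE1. The filter of at least 5 removed BBC3. The cause of these shifts was not tested, except that fewer libraries were fitted where one was left out. Depth limits BBC3, at 23 to 59 reads a library; a floor of 3 reads is 0.140 to 0.172 on the deposited scale and covers counting error only.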
